A study of Danio rerio with 19 samples.

Results

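Uninjured tail fins of *yap1* Crispants were set against uninjured tail fins of WT zebrafish, using the 3 libraries that the labels give to each group, which are 6 of the 19 libraries in the series. The Crispants were F0 embryos injected with Cas9 and a pair of guide RNAs against *yap1*, so their cells carry a mixture of mutations in that gene. All fish were of the WIK strain and 4 dpf at collection, and each library was made from pooled fins. The sources used here do not say whether the WT embryos that were sequenced had been injected. The labels call the replicates biological but name no clutch or day, so the p-values measure the spread between these samples. The other libraries are fins injured at 3 dpf and left for 24 h (4 of *yap1* Crispants and 3 of WT), and *wwtr1* Crispants with and without that injury (3 each). They are outside the groups compared, but all 19 libraries were fitted together. They thus had a part in the gene filter, the scaling and the estimate of spread behind the calls. Beyond that they are used only to read the same genes.

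The Hippo pathway is a kinase cascade, with Nf2, Stk3 and Sav1 upstream of the kinases Lats1 and Lats2, that phosphorylates Yap1 and Taz (encoded by *wwtr1*) and keeps them out of the nucleus. Unphosphorylated Yap1 and Taz bind Tead transcription factors and switch on genes such as *ctgf* and *cyr61*. The larval fin fold is a sheet of epidermis over a thin mesenchyme supported by actinotrichia, with macrophages and neutrophils arriving when it is cut.

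The *yap1* Crispant libraries held 41871438 to 58591108 counts and the WT libraries 39752178 to 80837847. The fin identity of the tissue was clear in all 6, with the actinodin gene *and1*, which builds actinotrichia, at 51803 to 82745 CPM (read counts scaled to the normalized library size) in *yap1* Crispants and 58759 to 65935 CPM in WT. Certain WT libraries stood apart. WT replicates 1 and 2 held more lens and retina RNA, with 27 marker genes, 18 of them abundant enough to test, summing to 3.93, 10.7 and 4.13 CPM in the *yap1* Crispants and to 112, 41.6 and 3.11 CPM in WT. The lens crystallin *crybb1*, which a fin should lack, was at 0, 1.72 and 0 CPM in *yap1* Crispants and at 41.8, 16.1 and 0 CPM in WT. WT replicate 1 also had 1953 CPM of summed skeletal muscle markers, against 814 to 951 CPM in the *yap1* Crispants and 854 and 862 CPM in the other WT libraries. In the genes raised in *yap1* Crispants, a set chosen from these same libraries, WT replicate 3 was the WT library nearest to the Crispants, as described further on. The part of these differences in the results was not tested beyond leaving the libraries out.

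The genes called at baseline in *yap1* Crispants were almost all raised. Of 20979 genes tested, 461 were raised and 8 lowered in *yap1* Crispants, which is 2.2% and 0.0381% of the genes tested. A gene was called when its level differed by more than 1 on the log2 scale with an adjusted p below 0.05 (edgeR quasi-likelihood test with Benjamini-Hochberg adjustment). Unadjusted p-values below 0.05 were found for 1419 genes with higher expression (6.76%) and 726 with lower expression (3.46%). Of all genes 45.1% had a positive and 54.9% a negative fold change. The raised genes had a median log2 fold change of 2.36 (quartiles 1.81 and 2.99), against -0.05 over all genes tested, and 433 of them carried a name. Their median level was 18.8 CPM in *yap1* Crispants and 3.82 CPM in WT. In 450 of the 461 the 3 Crispant libraries all lay above the 3 WT libraries. The choice of these genes from the same libraries largely fixed that count and the medians above. Over all genes the 3 Crispant libraries lay above WT in 8.27% and below WT in 8.05%. Fewer cells of a type and less RNA per cell cannot be told apart in bulk tissue, here or in any later result. The count depended on which WT libraries were kept: it was 164 without WT replicate 1, 144 without WT replicate 2, 628 without WT replicate 3 and 288 without *yap1* Crispant replicate 2. Leaving out both WT replicates 1 and 2, a choice made after seeing the data, kept only WT replicate 3 in that group. Calls are therefore not counted for that fit. In it all 461 genes kept a positive log2 fold change, with a median of 1.78. Their choice from these libraries largely fixed that sign.

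**Figure D1:**
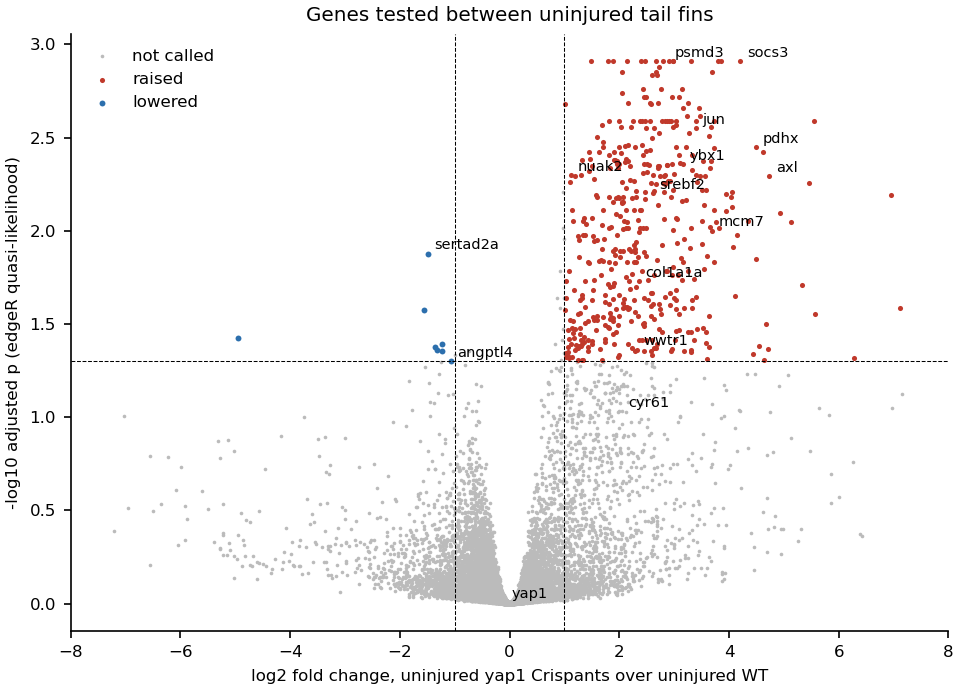
Log2 fold change of uninjured *yap1* Crispants over uninjured WT (x axis) against -log10 of the adjusted p from edgeR (y axis), 1 point for each of 20979 genes, with dashed lines at the thresholds. The 461 raised genes (red) fill the right side, the 8 lowered genes (blue) the left, and *yap1* itself sits near the origin.

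The targeted gene was read first. *yap1* (ENSDARG00000068401) had 276, 167 and 174 CPM in *yap1* Crispants and 229, 134 and 289 CPM in WT. The groups overlapped, and its log2 fold change was -0.08 (standard error 0.28, adjusted p = 0.976, edgeR). Gene counts include transcripts that carry small insertions or deletions, so this level does not report on editing.

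*wwtr1* (ENSDARG00000067719), which encodes the Yap1 paralogue Taz, was the only one of 23 Hippo pathway components tested that passed the thresholds. It had 2.57, 7.46 and 2.66 CPM in *yap1* Crispants and 0.619, 0.700 and 1.19 CPM in WT, so the 3 Crispant libraries lay above every WT library. The log2 fold change was 2.33 (SE 0.59, adjusted p = 0.0433, edgeR), and the call was lost without either WT replicate 1 or WT replicate 2, and without *yap1* Crispant replicate 2 or 3. Uninjured *wwtr1* Crispants had 0.629, 0.817 and 1.19 CPM of this transcript. The kinase *lats1* had 43.1, 54.8 and 29.5 CPM in *yap1* Crispants and 18.0, 23 and 21.9 CPM in WT, without overlap, yet its log2 fold change of 1.02 did not pass (SE 0.40, adjusted p = 0.325). Its paralogue *lats2* had a log2 fold change of -0.39 (adjusted p = 0.725), and the upstream regulators *nf2a* and *nf2b* had 0.03 and 0.00. Over the pathway list 12 members had a positive and 11 a negative fold change, with a median of 0.00, against -0.05 over all genes. The 1 raised gene was 4.35% of the list, against 2.2% of all genes. Every Crispant library lay above WT in 5 of the 23 and below WT in 1, against 8.27% and 8.05% of all genes. An unadjusted p below 0.05 (edgeR) was found for 5 with higher and 0 with lower expression, against 6.76% and 3.46% of all genes.

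Yap1 and Taz target genes went both ways. Of 31 tested, 2 were raised (6.45%, against 2.2% of all genes) and 0 lowered. A positive fold change was found for 10, against 45.1% of all genes, and the median log2 fold change was -0.16. Every Crispant library lay above WT in 4 targets and below WT in 5, against 8.27% and 8.05% of all genes. *axl* (ENSDARG00000112045), a receptor tyrosine kinase, had 2.09, 7.05 and 3.16 CPM in *yap1* Crispants and 0.103, 0.158 and 0.184 CPM in WT. That was a log2 fold change of 4.74 (SE 0.87, adjusted p = 0.00508, edgeR), on 574 counts in the Crispants and 27 in WT. *nuak2*, an AMPK-related kinase, had 41.9, 51.8 and 42.5 CPM in *yap1* Crispants against 15.2, 20.1 and 27.1 CPM in WT, a smaller difference of 1.12 (SE 0.20, adjusted p = 0.00501). For both genes the groups were apart in every library, and the *nuak2* call was lost without WT replicate 1.

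The targets most often used to read out Yap1 and Taz activity did not pass in the edgeR fit of all libraries, although *cyr61* passed under other settings. *cyr61* (ENSDARG00000023062), a secreted matricellular protein, had 56.6, 97.6 and 68.3 CPM in *yap1* Crispants and 10.1, 17.8 and 25.5 CPM in WT. Its groups did not overlap and its mean was 4.16-fold higher, but its adjusted p was 0.0927 (edgeR, log2 fold change 2.06, SE 0.59). Its adjusted p was 0.0099 with DESeq2, and 0.0341 and 0.00912 in edgeR fits of the 6 libraries and of the 9 uninjured libraries alone. *ctgfa* and *ctgfb*, the paired copies of the other classical target, gave 57.2, 51.0 and 39.8 CPM and 10.0, 7.05 and 4.42 CPM in *yap1* Crispants, against 58.7, 89.6 and 66.5 CPM and 12.1, 7.16 and 6.23 CPM in WT. For *ctgfa* every Crispant library lay below every WT library, while the *ctgfb* groups overlapped. Their log2 fold changes were -0.54 (SE 0.32) and -0.24 (SE 0.37), and DESeq2 called neither. Among other members *igfbp3* had a log2 fold change of 2.07 (adjusted p = 0.0666) and the tissue factor gene *f3b* one of -1.39 (adjusted p = 0.0843), neither of them called.

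**Figure D2:**
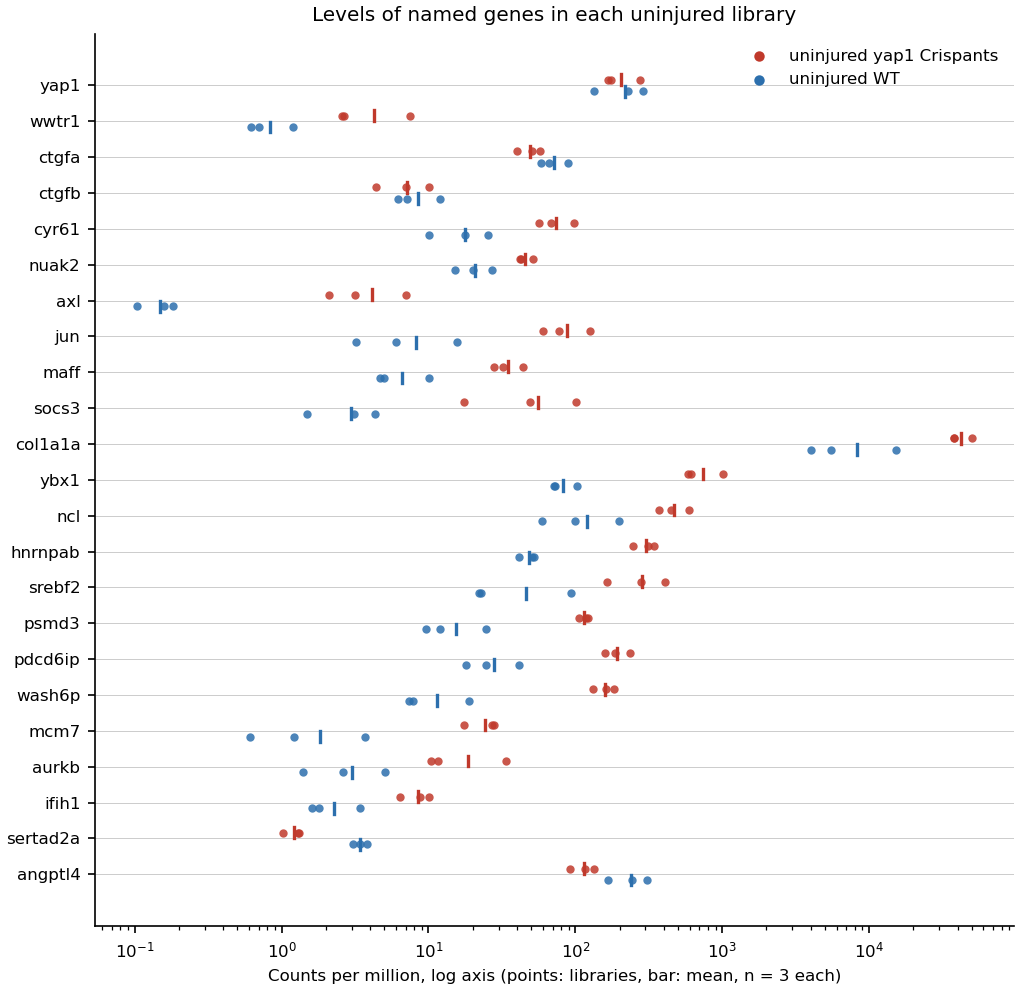
Level of 23 named genes in each uninjured library, in CPM on a log axis, with *yap1* Crispants (red) drawn above WT (blue) for each gene and a bar at each mean (n = 3). The groups are apart for *wwtr1*, *axl*, *jun* and *col1a1a*, and overlap for *yap1* and *ctgfb*.

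The genes with the smallest adjusted p (0.00123 each, edgeR) were of varied function. *socs3* (ENSDARG00000026611), a feedback inhibitor of cytokine and Jak-Stat signalling, had 17.6, 49.4 and 101 CPM in *yap1* Crispants and 1.5, 3.10 and 4.35 CPM in WT, a log2 fold change of 4.21 (SE 0.56). The Crispant libraries spread widely, yet the lowest of them was well above the highest WT library. A second gene of the same name had 19.7, 27.9 and 27.4 CPM in *yap1* Crispants and 9.72, 23.9 and 19.8 CPM in WT, with overlap (log2 fold change 0.49). *maff*, a small Maf transcription factor, had 27.8, 44.0 and 32.1 CPM in *yap1* Crispants and 4.64, 4.97 and 10.1 CPM in WT. *pdcd6ip*, whose product Alix works with the ESCRT machinery in membrane scission, had 159, 235 and 186 CPM in *yap1* Crispants and 17.9, 24.5 and 41.6 CPM in WT. The log2 fold changes of these 2 genes were 2.4 and 2.79.

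Other members of this group covered protein turnover, membranes and the nuclear envelope. The proprotein convertase *pcsk7* (log2 fold change 3.85), the ubiquitin ligase *arih1* (2.14), the deubiquitinase *zranb1* (2.66) and the phospholipid flippase *atp8b1* (1.89) rose. So did *lemd3* (2.47), an inner nuclear membrane protein, the RNA-binding phosphoprotein gene *carhsp1* (1.80), *arl9* (1.48), *wash6p* (3.80) and a pair of uncharacterised genes. None of the 15 calls was lost without any 1 library. *wash6p* had 131, 183 and 163 CPM in *yap1* Crispants and 7.79, 7.34 and 18.9 CPM in WT. Across the 15 genes with the smallest adjusted p, WT replicate 3 was the highest WT library each time.

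By level, type I collagen dominated. *col1a1a* (ENSDARG00000012405), an alpha 1 chain of type I collagen, had 37978, 38070 and 50174 CPM in *yap1* Crispants and 5488, 4033 and 15227 CPM in WT. Its mean was 42074 ± 7015 CPM in *yap1* Crispants and 8249 ± 6086 CPM in WT (SD, n = 3 each). The log2 fold change was 2.35 (SE 0.52, adjusted p = 0.0186, edgeR), with the call lost without WT replicate 1, WT replicate 2 or *yap1* Crispant replicate 3. This 1 gene made up most of the summed level of the raised genes, which was 55577, 58970 and 69961 CPM in *yap1* Crispants and 8497, 7338 and 22282 CPM in WT. Without it the sums were 17599, 20900 and 19787 CPM in *yap1* Crispants and 3009, 3305 and 7055 CPM in WT.

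The other chains of the same collagen were not called in the edgeR fit of all libraries. The second alpha 1 gene (*col1a1*, ENSDARG00000035809) had 2180, 1021 and 2604 CPM in *yap1* Crispants against 385, 201 and 823 CPM in WT, without overlap. In that fit it missed the threshold (log2 fold change 2.04, adjusted p = 0.0676, edgeR). It passed in edgeR without WT replicate 3 (adjusted p = 0.0155) and with the replicate number as a block (adjusted p = 0.0214). DESeq2 called it too (adjusted p = 0.00461). *col1a2*, whose product joins the alpha 1 chains in the triple helix, had 2314, 1138 and 2321 CPM in *yap1* Crispants and 3155, 1563 and 2133 CPM in WT, with overlap and a log2 fold change of -0.25 (SE 0.40). Of 25 fibrillar collagen and matrix genes tested, *col1a1a* was the 1 raised (4%, against 2.2% of all genes), with a list median of -0.01. Every Crispant library lay above WT in 5 of the 25 and below WT in 0, against 8.27% and 8.05% of all genes. An unadjusted p below 0.05 (edgeR) was found for 6 with higher and 0 with lower expression, against 6.76% and 3.46% of all genes. *lox*, which cross-links collagen, had a log2 fold change of 1.96 (adjusted p = 0.069). None of 28 basement membrane and integrin genes passed.

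Among the 10 most abundant raised genes were *ybx1*, *ncl*, *serbp1*, *hnrnpa0l* and a gene named *hnrnpab*, whose products bind RNA. *ybx1* (ENSDARG00000004757), a cold-shock domain protein that packages mRNA, had 610, 1015 and 587 CPM in *yap1* Crispants and 71.0, 72.5 and 102 CPM in WT, a log2 fold change of 3.17 (SE 0.56, adjusted p = 0.00438). *ncl*, encoding the nucleolar protein nucleolin, had 593, 450 and 374 CPM in *yap1* Crispants and 59.7, 100 and 198 CPM in WT, and *serbp1*, a ribosome-associated protein, had 539, 413 and 429 CPM against 115, 121 and 253 CPM. The *ncl* call (log2 fold change 1.98, adjusted p = 0.0322) was lost on leaving out any 1 library other than WT replicate 3, and that of *serbp1* without WT replicate 1 or 2. *hnrnpa0l* had 341, 374 and 347 CPM in *yap1* Crispants and 21.0, 24.5 and 107 CPM in WT, and *hnrnpab* (ENSDARG00000007960) had 247, 341 and 313 CPM in *yap1* Crispants and 41.5, 50.9 and 52.1 CPM in WT. In all of these genes the lowest Crispant library exceeded the highest WT library. The *hnrnpa0l* call was lost without WT replicate 2, and those of *ybx1* and this *hnrnpab* gene were kept in every leave-out of 1 library.

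The other abundant raised genes were of varied function. *srebf2*, the sterol-sensing activator of cholesterol synthesis, had 164, 279 and 405 CPM in *yap1* Crispants and 22.7, 21.9 and 93.6 CPM in WT (log2 fold change 2.62, adjusted p = 0.00626, edgeR), a call lost without WT replicate 1 or 2, as were those of *prkar2a* and *vaspb*, the last also without *yap1* Crispant replicate 2 or 3. *srebf2* was the 1 raised gene of 30 in glycolysis and cholesterol synthesis, against 2.2% of all genes. Of the 30 genes 13 had a positive fold change, against 45.1% of all genes. *prkar2a*, a regulatory subunit of protein kinase A, and *vaspb*, an actin filament elongation factor, had log2 fold changes of 2.97 and 1.57. *si:dkey-97i18.5* had 13.7, 202 and 729 CPM in *yap1* Crispants and 17.3, 50.1 and 10.8 CPM in WT. Its groups overlapped, and the mean rested on *yap1* Crispant replicates 2 and 3. Its call was kept only without *yap1* Crispant replicate 1.

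To see whether whole complexes moved, the members of 10 protein families were read by name, with the families chosen after their values were seen, so the counts are descriptions to set beside the 2.2% of all genes that were raised. In most of them some members were called raised while the majority were not. Of 7 genes for the MCM helicase that unwinds DNA at replication, *mcm7* rose, with 17.5, 27.9 and 27.3 CPM in *yap1* Crispants and 1.21, 0.613 and 3.68 CPM in WT (log2 fold change 3.70, adjusted p = 0.00996, edgeR), a call lost without WT replicate 1 or 2. *mcm4* had a log2 fold change of 2.36 (adjusted p = 0.105, called without WT replicate 3), while *mcm2*, *mcm3*, *mcm5* and *mcm6* (ENSDARG00000057683) had -0.67, -0.70, -0.71 and -0.70, none of them called. In these 4 genes every Crispant library lay below every WT library, against 8.05% of all genes. *psmd3*, a subunit of the regulatory particle of the proteasome, had 105, 122 and 119 CPM in *yap1* Crispants and 9.67, 12.0 and 24.6 CPM in WT. It was the 1 raised gene of 42 proteasome genes tested. Of the 42 genes 36 had a positive fold change, against 45.1% of all genes, and the median was 0.17.

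In the pyruvate and oxoglutarate dehydrogenase complexes of mitochondria 4 of 10 genes rose, against 2.2% of all genes. *pdhx*, which tethers the E3 subunit, had 27.0, 68.1 and 35.2 CPM in *yap1* Crispants and 1.11, 1.58 and 3.00 CPM in WT, a log2 fold change of 4.50. The phosphatase regulator *pdpr* (3.65) and the acyltransferases *dlst* (1.58) and *dlat* (1.24) were the others. The E1 and E3 genes *pdhb* and *dld* had 0.15 and -0.00. Without WT replicate 2 the calls of *pdpr*, *dlst* and *dlat* were lost, those of *pdpr* and *dlat* were lost without WT replicate 1 too and that of *dlat* without *yap1* Crispant replicate 3, and that of *pdhx* was kept throughout.

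Chromatin remodellers of the BAF and PBAF class had 5 raised genes of 31, namely *smarce1* (2.87), *smarcd1* (2.06), *arid2* (1.82), *smarca4* (1.31) and *arid1a* (1.02), around a median of -0.03. Each of these 5 calls was lost without WT replicate 1 and without WT replicate 2, and those of *smarce1*, *smarca4* and *arid1a* also without *yap1* Crispant replicate 3. Both *hnrnpab* genes and the pair *hnrnpa0l* and *hnrnpa0b* were the 4 raised of 24 hnRNP genes, and both genes named *srsf1*, an SR splicing factor, were the 2 raised of 17 SR factors. *srsf1* (ENSDARG00000057691) had 179, 153 and 161 CPM in *yap1* Crispants and 25.9, 25.8 and 75.1 CPM in WT. Reads shared between such close copies could have been divided between them, so the level of each copy is uncertain. Without WT replicate 1 or 2 the calls of *hnrnpa0b*, the other *hnrnpab* gene and this *srsf1* gene were lost. Regulators of actin branching and extension had 6 raised genes of 31 (*wasl*, *cttn*, *wasa*, *wipf2*, *enah* and *vaspb*). Of the 31, 28 had a positive fold change, against 45.1% of all genes, with a median of 0.35. Over all genes 2.2% were raised, to set beside each family count here, and the families were chosen after their values were seen. The cortactin gene *cttn* had 134, 164 and 185 CPM in *yap1* Crispants and 13.6, 9.56 and 54.4 CPM in WT. Of 12 SOCS family genes *socs3*, *socs7* and *socs9* rose. The calls of *socs7*, *socs9*, *wasa* and *vaspb* were lost without WT replicate 1 or 2, and that of *cttn* without WT replicate 1. None of 81 ribosomal protein genes passed in edgeR, with 0 at an unadjusted p below 0.05. Their median was 0.12, and 68 had a positive fold change, against 45.1% of all genes. For 67 of the 81 the highest of the 6 values was that of *yap1* Crispant replicate 2, as in 3494 of all 20979 genes tested. They summed to 27113, 38519 and 29557 CPM in *yap1* Crispants and 26523, 33582 and 26830 CPM in WT, with overlap.

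**Figure D3:**
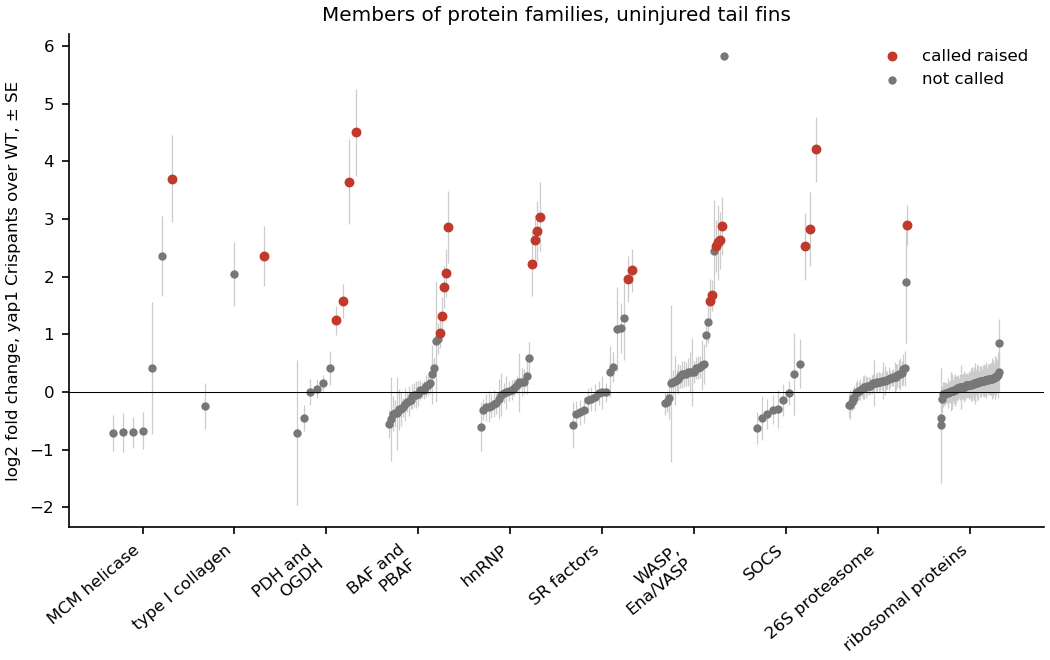
Log2 fold change of uninjured *yap1* Crispants over uninjured WT, with its standard error, for each tested gene of 10 protein families, in rising order within a family (red, called raised, and grey, not called, with 1 gene named *vasp* drawn without an error bar because its standard error could not be estimated). *mcm7*, *pdhx* and *psmd3* lie far above most members of their families, and the ribosomal protein genes stay close to 0.

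Immediate early genes showed the same unevenness. *jun* (ENSDARG00000043531), a subunit of the AP-1 transcription factor, had 77.6, 126 and 60.6 CPM in *yap1* Crispants and 3.2, 5.97 and 15.6 CPM in WT, a log2 fold change of 3.41 (SE 0.55, adjusted p = 0.0028, edgeR). It was the 1 raised gene of 20, against 2.2% of all genes. Of the 20 genes 16 had a negative fold change, against 54.9% of all genes, with a median of -0.53. *egr1* had 27.9, 31.0 and 33.6 CPM in *yap1* Crispants and 26.2, 112 and 102 CPM in WT, and *atf3* 9.70, 18.0 and 17.4 CPM against 13.6, 48.3 and 59.0 CPM, neither of them called. Of 31 genes of wounding, inflammation and fin regeneration, *socs3* alone passed, with a list median of 0.77. The collagenase *mmp13a* had 1.65, 10.4 and 36.4 CPM in *yap1* Crispants and 2.22, 2.70 and 1.05 CPM in WT (log2 fold change 3.02, adjusted p = 0.0624), and in 18 of the 31 *yap1* Crispant replicate 3 was the highest Crispant library, as in 35.4% of all genes tested.

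Cell division genes had 2 raised of 22, *mcm7* and the mitotic kinase gene *aurkb*, which had 10.4, 11.7 and 33.6 CPM in *yap1* Crispants and 2.63, 1.40 and 5.06 CPM in WT (log2 fold change 2.6, adjusted p = 0.0462, edgeR). The *aurkb* call was lost without WT replicate 1 or 2, or *yap1* Crispant replicate 2 or 3. Of the 22 genes 14 had a positive fold change, against 45.1% of all genes. In 3 every Crispant library lay above WT and in 4 every Crispant library lay below it, against 8.27% and 8.05% of all genes. Over all genes 2.2% were raised, the share to set beside each count of raised genes here. The replication clamp gene *pcna* overlapped, at 78.0, 92.1 and 126 CPM in *yap1* Crispants and 126, 133 and 110 CPM in WT. *spry1*, a feedback inhibitor of Fgf signalling, was the 1 raised of 38 readouts of developmental signalling (log2 fold change 1.71). *ifih1*, a sensor of double-stranded RNA, was the 1 raised of 15 interferon response genes, with 6.38, 8.81 and 10.1 CPM in *yap1* Crispants and 1.6, 1.79 and 3.42 CPM in WT. The *spry1* and *ifih1* calls were lost without WT replicate 1 or 2. No gene passed among 21 p53 targets (median -0.10), 19 unfolded protein and integrated stress response genes (-0.01) or 20 heat shock genes (-0.37).

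The 8 lowered genes were mostly at low levels. *sertad2a* had 1.28, 1.32 and 1.02 CPM in *yap1* Crispants and 3.40, 3.05 and 3.82 CPM in WT, a log2 fold change of -1.49 (SE 0.32, adjusted p = 0.0132, edgeR). *angptl4*, a secreted inhibitor of lipoprotein lipase, had 134, 116 and 92.5 CPM in *yap1* Crispants and 166, 307 and 245 CPM in WT, at the edge of the threshold (log2 fold change -1.06, adjusted p = 0.0499). *efl1*, a GTPase of ribosome maturation, and *si:ch1073-235i16.2* had -1.24 and -1.23. The *sertad2a* call was lost without WT replicate 1 or *yap1* Crispant replicate 3, and that of *angptl4* without any 1 library other than WT replicate 1. *slc6a5*, a glycine transporter of inhibitory neurons, was counted once in the *yap1* Crispants and 46 times in WT, so no fold is given. *stm*, needed for otolith formation, had 13.5, 4.88 and 4.27 CPM in *yap1* Crispants and 13.4, 22.8 and 20.5 CPM in WT, and was the 1 lowered gene whose groups overlapped. The other lowered genes, ENSDARG00000097644 and ENSDARG00000098631, had no name. Without *yap1* Crispant replicate 3 no gene was called lowered by edgeR, without WT replicate 2 there was 1, without *yap1* Crispant replicate 2 there were 4, and without *yap1* Crispant replicate 1 there were 64.

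Markers of cell types gave few calls. None of the tested markers of epidermis (20 genes), fin fold mesenchyme (19), ionocytes, notochord, muscle, neurons, pigment cells or endothelium passed. Epidermal markers had a median log2 fold change of 0.38, with 17 of 20 positive, against 45.1% of all genes. In 7 of the 20 every Crispant library lay above WT, against 8.27% of all genes. For 10 of the 20 the highest of the 6 values was that of *yap1* Crispant replicate 3, against 20.6% of all genes. Epidermal markers summed to 122050, 136601 and 179241 CPM in *yap1* Crispants and 122989, 103717 and 124090 CPM in WT. Skeletal muscle markers had 24 of 26 negative with a median of -0.55, and neuronal markers 25 of 28 negative with a median of -0.56. In 8 of the neuronal markers every Crispant library lay below WT. Over all genes 54.9% were negative and 8.05% lay below WT. The summed levels overlapped between the groups. Muscle markers summed to 951, 814 and 932 CPM in *yap1* Crispants and 1953, 862 and 854 CPM in WT. Neuronal markers summed to 1087, 1378 and 2028 CPM in *yap1* Crispants and 1567, 1327 and 1252 CPM in WT. Macrophage markers had 3 raised genes of 25, a higher share than the 2.2% of all genes, and a median of 0.98. They summed to 23.8, 41.7 and 84.3 CPM in *yap1* Crispants and 19.3, 34.9 and 29.6 CPM in WT. The raised genes were *ctss2.1* (cathepsin S; 2.42, 2.65 and 4.56 CPM in *yap1* Crispants and 0.903, 0.630 and 0.787 CPM in WT) and the complement genes *c1qb* and *c1qc*, with 93 and 115 counts in the Crispants and 17 and 29 in WT.

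Macrophage markers were highest in 1 library. In 19 of the 25 genes the highest of the 6 values was that of *yap1* Crispant replicate 3, as it was in 20.6% of all genes tested, and the defining marker *mpeg1* had 3.74, 5.35 and 20.4 CPM in *yap1* Crispants and 1.68, 2.73 and 3.42 CPM in WT (log2 fold change 1.89, adjusted p = 0.104, edgeR), while a second gene of that name had -0.94. The same library was the highest of the 6 for 7 of 10 neutrophil markers, against the same 20.6%. The calls of *c1qb* and *c1qc* were lost without it and also without WT replicate 1 or 2, and that of *ctss2.1* was lost without WT replicate 2. Lateral line hair cell markers had 2 raised of 18, against 2.2% of all genes, namely *ush1c* and 1 of 2 *myo6* genes. The marker listed was *myo6b*, and the names used do not tell which of the 2 genes that is. Of the 18, 13 were negative, the median was -0.27, and the hair cell gene *otof* had 86.3, 38.7 and 62.4 CPM in *yap1* Crispants and 115, 80.5 and 88.4 CPM in WT, with overlap. The *ush1c* groups overlapped too, at 0.575, 4.44 and 11.5 CPM in *yap1* Crispants and 0.438, 0.560 and 0.944 CPM in WT, and its call was lost without WT replicate 1 or 2 or *yap1* Crispant replicate 3.

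**Figure D4:**
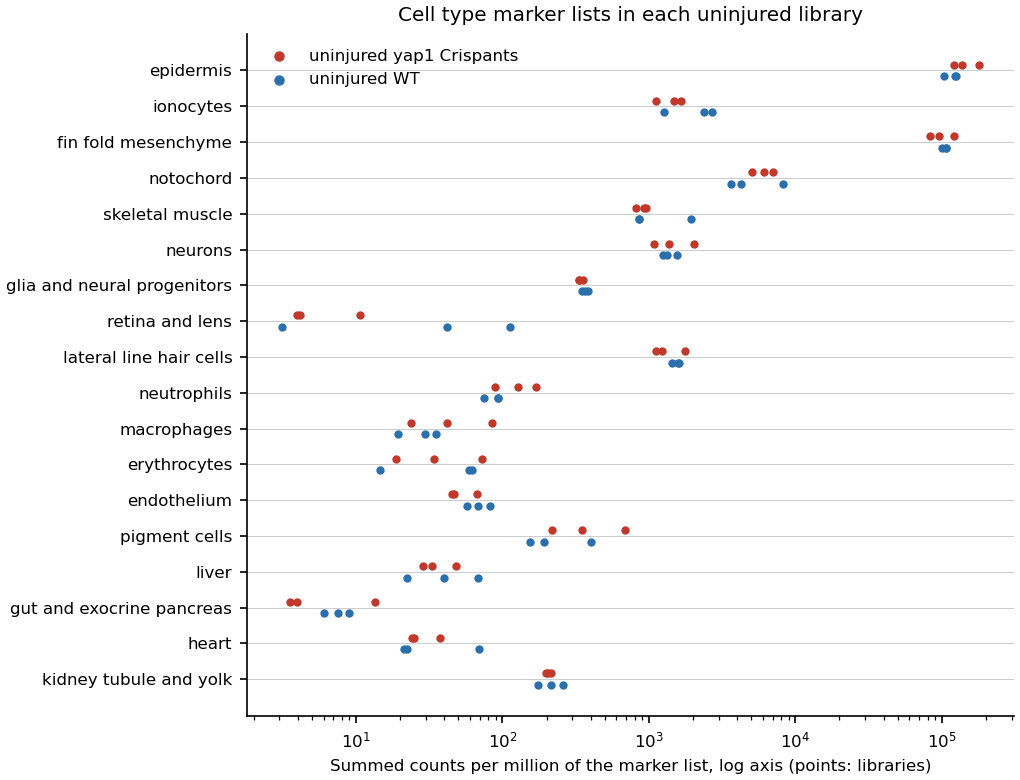
Summed CPM of 18 cell type marker lists in each uninjured library, on a log axis, with *yap1* Crispants (red) drawn above WT (blue). Epidermis and fin fold mesenchyme are the most abundant, 2 WT libraries stand out for retina and lens, and 1 *yap1* Crispant library is the highest for macrophages.

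The level of the 461 raised genes was then followed through all 19 libraries, as the median of log2(CPM + 0.5) minus the uninjured WT mean. It was 1.90, 2.21 and 2.03 in uninjured *yap1* Crispants and -0.32, -0.22 and 0.51 in uninjured WT, values that the choice of genes fixed. WT replicate 3 was the highest WT library in 397 of the 461 genes (86.1%), against 29.0% of all genes tested. Uninjured *wwtr1* Crispants, which entered the choice only through the shared fit, lay at 0.23, 0.48 and 0.69. Injured libraries lay at 2.09, 1.58, 1.19 and 2.16 in *yap1* Crispants, 0.95, 1.14 and 0.70 in *wwtr1* Crispants and 1.25, 0.84 and 1.35 in WT. All of these are set against the uninjured WT mean, which the choice of genes favoured to be low. How much of the height of the other groups above that mean came from the choice was not tested.

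**Figure D5:**
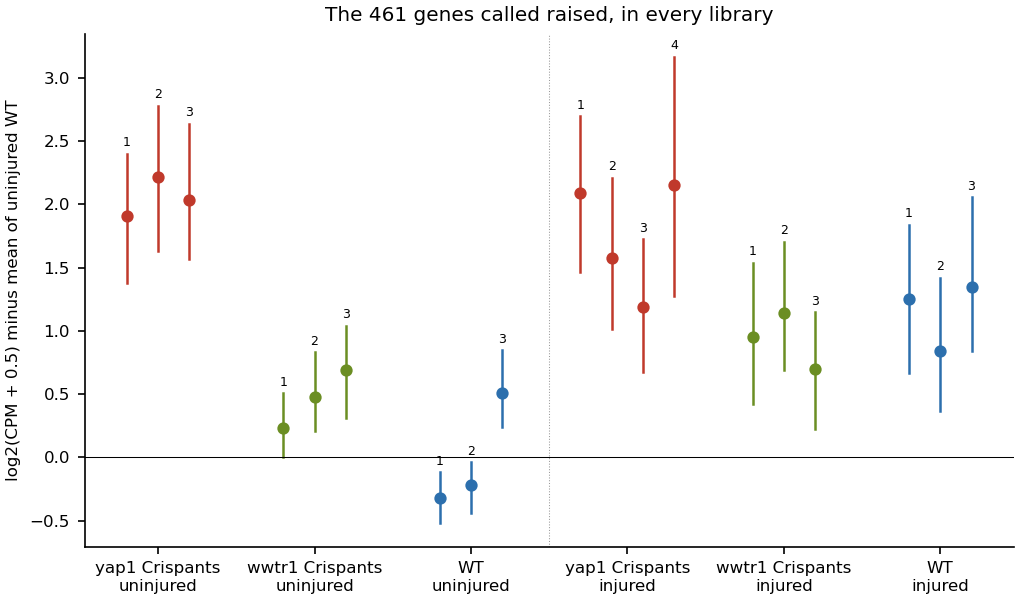
Median (points) and quartiles (bars) of the 461 raised genes in each of 19 libraries, as log2(CPM + 0.5) minus the mean of uninjured WT, with replicate numbers above the bars. Uninjured *yap1* Crispants sit at 1.90 to 2.21, WT replicate 3 lies above the other uninjured WT libraries, and every injured library lies above uninjured WT. The choice of genes favoured low values in uninjured WT, so the height of other groups above it is partly set by that choice.

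Injured *yap1* Crispants and injured WT are outside the groups compared at baseline, but both tests took the spread of each gene from the same fit of all libraries. The unadjusted p-values given here are therefore not independent of the choice of the 461 genes. Between the injured groups 0 genes were raised and 0 lowered by edgeR, with 1731 at an unadjusted p under 0.05, and DESeq2 called 159 raised and 3 lowered. Without WT injured replicate 1 edgeR called 37 raised. Of the 461 genes raised at baseline 420 had a positive log2 fold change in injured *yap1* Crispants against injured WT (91.1%, against 51.1% of all genes), with a median of 0.62, against 0.01 over all genes. An unadjusted p under 0.05 with higher expression was found for 150 of the 461 (32.5%, against 6.42% of all genes). The 4 Crispant libraries all exceeded the 3 WT libraries for 38 of the 461 (8.24%, against 3.19% of all genes).

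*cyr61* had 73.9, 21.5, 13.3 and 92.5 CPM in injured *yap1* Crispants and 18.4, 11.0 and 9.34 CPM in injured WT (log2 fold change 1.96, SE 0.57, adjusted p = 0.359, edgeR). *axl* had 4.48, 1.56, 0.307 and 5.73 CPM in injured *yap1* Crispants and 0.879, 0.514 and 0.349 CPM in injured WT, and *wwtr1* 2.65, 1.52, 0.973 and 4.47 CPM against 1.16, 0.764 and 0.523 CPM. In these genes replicates 1 and 4 were high and replicate 3 lay within or near the WT range. *col1a1a* had 19665, 8400, 7834 and 6657 CPM in injured *yap1* Crispants and 6452, 3512 and 4274 CPM in injured WT, without overlap (log2 fold change 1.16, adjusted p = 0.514). *socs3* had 342, 333, 266 and 396 CPM in injured *yap1* Crispants and 322, 119 and 203 CPM in injured WT, with overlap. The difference between genotypes was tested against that at baseline as an interaction, which gave 0 raised and 0 lowered genes by edgeR, 882 higher and 829 lower (3.95%) at an unadjusted p under 0.05, and 47 raised and 81 lowered by DESeq2. Left without WT uninjured replicate 3, edgeR called 261 lowered and 5 raised interactions, without *yap1* uninjured replicate 1 it called 7 lowered, and without *yap1* injured replicate 1 it called 1. That test shares its uninjured libraries with the choice of the 461 genes, so nothing is read from their values in it.

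The injury response of *wwtr1* Crispants offered another set of libraries outside the 2 groups compared at baseline, again from the same fit. Injury raised 1314 genes (6.26% of those tested) and lowered 994 (4.74%) in *wwtr1* Crispants. Of the 461 genes, 51 were raised by injury (11.1%) and 6 lowered (1.3%), and the 51 are 3.88% of the genes that injury raised. *socs3* was among them, with 146, 181 and 110 CPM in injured and 6.22, 7.06 and 14.4 CPM in uninjured *wwtr1* Crispants (log2 fold change 3.98, adjusted p = 0.000122, edgeR). *ctss2.1* (3.70), *ush1c* (3.89), *c1qc* (2.95), *c1qb* (2.26), *aurkb* (2.09), *psmd3* (1.55) and *lemd3* (1.23) also rose on injury. *col1a1a* went the other way, with 4761, 4161 and 3053 CPM in injured and 5451, 12132 and 19169 CPM in uninjured *wwtr1* Crispants (log2 fold change -1.62, adjusted p = 0.0353), and *angptl4* fell with it (-1.08).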

How the data were processed

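Reads were quality-checked (FastQC), adapter-trimmed (Trim Galore), mapped to GRCz11 (BWA-MEM) and assigned to genes (HTSeq) by the authors, with no versions given in the sources used here, and the authors deposited raw counts per gene for 19 low-input libraries. BWA-MEM does not model splicing, and use of strand is not stated, so overlapping, antisense and duplicated genes are uncertain. Counts were tested in R 4.3.3 with edgeR 4.0.16 (filterByExpr over 6 groups, TMM, robust quasi-likelihood fit of all libraries, prior count 0.125), and DESeq2 1.42.0 was an alternative. CPM used TMM library sizes, in which a floor of 3 counts is 0.0393 to 0.0878 CPM in the 6 libraries and covers counting error only. Reference names covered 29201 of 32520 gene IDs, of which 6314 share a name, and 598 of 636 list entries matched, some after removal of a paralogue letter. The fit was tested on simulated data.

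The members and gene lists were chosen with earlier results of these data known. Named genes were 9 Hippo pathway and target genes, the 15 raised and 10 lowered named genes with the smallest adjusted p among those without overlap (5 lowered genes qualified), the 10 raised genes of highest mean, and called list members beside uncalled members of the same lists. Family members and the remaining lowered genes were added after their values were seen. A promoter motif search was not run, and 1 gene that the rule names is not reported here. No 2 replicates of any of the 6 groups agreed within sampling noise. With 3 against 3 libraries the smallest two-sided exact p is 0.1, so single values were tested in the fit across all genes.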

Additional observations from a re-analysis of the deposited data

Results flagged for a closer look

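*col1a1a* in injured *yap1* Crispants was set apart by replicate 1, at 19665 CPM, against 8400, 7834 and 6657 CPM in replicates 2, 3 and 4. The gap of replicate 1 to the nearest of the others was 0.866 of the group's whole range. The same check on *wwtr1*, *cyr61*, *axl*, *jun*, *yap1*, *socs3*, *mcm7* and the median of the raised genes flagged none of them. About 1 in 20 groups is set apart in this way by chance, and several were checked here.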

How the results depend on the processing

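Baseline calls depended on the libraries and the tool more than on filters or scaling. DESeq2 called 733 raised genes, among them all 461, and 37 lowered, while a fit of the 6 libraries alone called 244 raised and 1 lowered. With 1 library left out at a time, the raised genes numbered 144 (without WT replicate 2) to 628 (without WT replicate 3) and the lowered genes 0 to 64. Without WT replicates 1 and 2 together only WT replicate 3 was left in that group, so calls are not counted for that fit. RLE size factors, no filter, at least 10 counts, 9 libraries, thinned counts, a prior count of 2 and the adjusted p alone gave 365 to 473 raised. All 461 genes kept a positive fold change in each leave-out, a sign largely fixed by their choice from these libraries. Of 66 called genes checked by name, 36 lost their call without WT replicate 1, 38 without replicate 2 and 8 without replicate 3. The cause was not tested.

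In the uninjured libraries same-numbered deviations correlated at -0.10, 0.20 and -0.09, and differently numbered ones at -0.12 to 0.19. No pairing by replicate number was seen, but so few libraries cannot exclude one. A replicate block called 264 raised and 7 lowered genes at baseline (with *cyr61*, *col1a1* and *mcm4* among the raised) and 98 raised and 14 lowered in injured fins, where the correlations were 0.53, 0.08 and 0.19. In injured fins DESeq2 called 159 raised and 3 lowered genes, and leave-outs gave 0 to 37 raised and 0 lowered. For the interaction DESeq2 called 47 raised and 81 lowered, and leave-outs gave 0 to 5 raised and 0 to 261 lowered. The counts for injury in *wwtr1* Crispants stayed within 1.5 times under every setting run.

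Among the genes checked by name, sign changes were seen only in genes that were not called. With 1 library left out, log2 fold changes ran over -0.35 to 0.18 for *yap1*, -0.56 to 0.10 for *ctgfb*, -0.14 to 0.19 for *nf2a*, -0.10 to 0.083 for *nf2b*, -0.46 to 0.057 for *col1a2* and -0.72 to 1.32 for the second *mcm6* gene (ENSDARG00000033231). Without WT replicates 1 and 2 together *ctgfb* had 0.20 and that *mcm6* gene -0.52 (-0.17 under the replicate block), and *nf2b* had -0.012 with no filter and -0.035 with thinned counts. Counting depth limits the rarest genes, such as *c1qb* and *slc6a5*.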
